A study of Homo sapiens with 12 samples.

Results

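The IGF receptor axis and the IGF-binding proteins were followed through 10 genes, matched by symbol to the Ensembl identifiers of the count table. All 10 were found among the 62754 genes listed. They are the receptors IGF1R, INSR and IGF2R, the docking protein IRS1, and the binding proteins IGFBP2, IGFBP3, IGFBP4, IGFBP5, IGFBP6 and IGFBP7. Polyadenylated RNA was sequenced from 12 libraries of PC9, a human lung adenocarcinoma line whose growth depends on mutant EGFR. Cells wild type for TDP1 (WT) gave 3 of the 4 groups: untreated cells, called the controls here, cells kept for 7 days in 1 µM erlotinib (DTC) and cells kept in it for 28 days (DTEC). Erlotinib inhibits the EGFR kinase. No untreated cells kept for 7 or 28 days are among the groups, so the drug and the time in culture cannot be told apart. Untreated cells of 1 TDP1 knockout line, KO2, made up the last group, so the genotype and the properties of that line cannot be told apart. Each group held 3 cultures, all cells went back to a subclonal PC9 line, and the cultures of a condition were split from a common flask. P-values therefore measure the spread between such cultures.

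Insulin-like growth factors act through IGF1R, a receptor tyrosine kinase closely related to the insulin receptor INSR, and the 2 proteins can pair into hybrid receptors. Activated receptors phosphorylate IRS1, which recruits PI3-kinase and so feeds the AKT and mTOR pathways. IGF2R has no kinase. It takes up IGF2 for degradation and carries mannose 6-phosphate tagged enzymes to lysosomes. IGFBPs are secreted proteins that hold IGFs outside the cell, and proteases free the ligand by cutting them. In EGFR-mutant lung cancer cells, IGF1R is a well-known route of signalling when EGFR is inhibited.

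The libraries held 25572691 to 38373679 estimated counts. TDP1 was at 28.1, 25.1 and 25.8 CPM (the count relative to the library total, in edgeR's cpm unit, with totals scaled by TMM) in the control libraries and at 10.1, 11.3 and 10.98 CPM in the KO2 libraries, so transcript remained in the line labelled as a knockout. It was at 12.7 to 15.7 CPM in DTC and 25.4 to 28.4 CPM in DTEC. All 6 epithelial markers listed for the check (EPCAM, CDH1, KRT7, KRT8, KRT18 and KRT19) were detected in every group. Of 8 fibroblast markers, COL1A2, COL3A1, DCN, LUM, PDGFRA and THY1 were at the counting floor in the controls (that is, 3 counts or fewer in every library). Of 5 leukocyte markers, CD3E and PTPRC were at that floor in the controls and CD3E was in every group, while CD68 and, at a low level, LYZ were expressed. The summed leukocyte list ran from 26.9 to 33.6 CPM in the controls, 38.1 to 54.8 CPM in DTC, 35.0 to 40.9 CPM in DTEC and 25.9 to 29.2 CPM in KO2. In DTC, CD68 was 1.56-fold higher than in the controls (adjusted p 0.000838) and LYZ, with 34 to 56 counts against 1 to 11, 6.29-fold higher (adjusted p 0.00182). Of 5 endothelial markers, KDR and TEK were at the floor in the controls, while CDH5 and PECAM1 were expressed at 24.6 to 35.2 CPM. VWF had 1 to 7 counts in the controls and 39 to 63 in DTC (12.9-fold higher, adjusted p 2.88e-05), and PECAM1 was lower there (log2 fold change -1.87, adjusted p 4.43e-09). The part of these markers in the DTC results was not tested. The summed endothelial list ran from 58.5 to 61.4 CPM in the controls, 42.3 to 50.2 CPM in DTC, 122 to 142 CPM in DTEC and 75.8 to 77.2 CPM in KO2. DTC replicate 1 stood apart from the other DTC libraries in a way that followed gene size. Relative to the mean of DTC replicates 2 and 3 on the log2 scale, the median was 0.32 over 2897 tested genes spanning more than 100 kb and -0.26 over 4155 genes spanning less than 10 kb.

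Sequences of the 250 bases before the start site were taken from RefSeq (GRCh38.p14) for 9 of the 10 members, IGFBP7 being without an entry. Those of the 4 binding proteins with the largest changes and of the 3 receptors are shown 5′ to 3′. Those of IRS1 and IGFBP6 were searched but are not shown. Whether these sequences bear on the changes was not tested. Capitals mark matches, on either strand, to 7 short motifs: FOXO (GTAAACA), the insulin response element (CAAAACA), AP-1 (TGANTCA), TEAD (GGAATG), E-box (CACGTG), the core promoter box TATAAA, called the TATA box here, and GC box (GGGCGG).
IGFBP3: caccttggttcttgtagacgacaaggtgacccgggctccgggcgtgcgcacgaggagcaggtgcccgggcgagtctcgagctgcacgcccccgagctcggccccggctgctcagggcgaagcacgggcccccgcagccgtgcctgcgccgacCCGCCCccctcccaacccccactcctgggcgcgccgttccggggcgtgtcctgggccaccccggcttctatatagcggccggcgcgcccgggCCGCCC
IGFBP5: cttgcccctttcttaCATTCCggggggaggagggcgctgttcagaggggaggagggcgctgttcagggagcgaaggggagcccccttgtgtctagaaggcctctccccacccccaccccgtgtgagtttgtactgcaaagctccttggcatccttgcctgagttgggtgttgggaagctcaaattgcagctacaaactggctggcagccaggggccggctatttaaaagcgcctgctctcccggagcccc
IGFBP2: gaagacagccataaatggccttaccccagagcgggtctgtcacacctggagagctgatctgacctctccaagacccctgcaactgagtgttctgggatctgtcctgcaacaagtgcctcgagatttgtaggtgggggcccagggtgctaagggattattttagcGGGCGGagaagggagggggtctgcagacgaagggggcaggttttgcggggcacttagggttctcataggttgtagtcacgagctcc
IGFBP4: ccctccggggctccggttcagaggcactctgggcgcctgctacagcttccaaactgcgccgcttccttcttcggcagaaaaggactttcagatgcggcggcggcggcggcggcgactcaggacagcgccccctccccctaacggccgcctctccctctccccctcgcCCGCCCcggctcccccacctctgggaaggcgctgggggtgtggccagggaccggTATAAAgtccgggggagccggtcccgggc
IGF1R: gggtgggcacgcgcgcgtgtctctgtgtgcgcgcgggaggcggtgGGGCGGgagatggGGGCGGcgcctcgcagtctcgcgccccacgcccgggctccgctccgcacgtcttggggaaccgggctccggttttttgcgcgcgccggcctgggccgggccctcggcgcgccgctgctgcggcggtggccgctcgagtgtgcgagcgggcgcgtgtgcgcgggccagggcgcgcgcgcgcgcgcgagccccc
INSR: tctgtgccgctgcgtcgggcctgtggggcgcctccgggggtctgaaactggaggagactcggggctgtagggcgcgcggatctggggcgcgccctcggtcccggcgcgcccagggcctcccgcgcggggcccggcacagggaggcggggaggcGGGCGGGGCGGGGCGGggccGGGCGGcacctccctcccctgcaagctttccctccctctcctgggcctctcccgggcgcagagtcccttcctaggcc
IGF2R: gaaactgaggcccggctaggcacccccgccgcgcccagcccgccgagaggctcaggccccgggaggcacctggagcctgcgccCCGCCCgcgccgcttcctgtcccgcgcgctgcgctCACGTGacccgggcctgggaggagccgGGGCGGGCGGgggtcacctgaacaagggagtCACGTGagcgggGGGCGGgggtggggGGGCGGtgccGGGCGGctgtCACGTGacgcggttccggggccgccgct
The windows are chr7:45921273-45921522 (minus strand) for IGFBP3, chr2:216695550-216695799 (minus strand) for IGFBP5, chr2:216632578-216632827 (plus strand) for IGFBP2, chr17:40443200-40443449 (plus strand) for IGFBP4, chr15:98648289-98648538 (plus strand) for IGF1R, chr19:7294415-7294664 (minus strand) for INSR and chr6:159968832-159969081 (plus strand) for IGF2R. The receptor promoters were rich in G and C, at 81.2% for IGF1R, 79.2% for IGF2R and 78.4% for INSR, against a median of 58% over 35116 promoters. The IGFBP2 and IGFBP5 windows were lower, at 56.8% and 61.2%, and IGFBP3 and IGFBP4 lay between, at 76.0% and 71.6%. The windows not shown were at 80.8% for IRS1 and 61.2% for IGFBP6. IGFBP4 held the only TATA box match among the 9 members, 29 bases before the start. The search took the letters TATAAA exactly. Similar stretches, such as tatata in the IGFBP3 window and tatttaaa in the IGFBP5 window, were not counted. A TATA box match was present in 10.7% of all promoters. GC boxes numbered 6 in IGF2R, 4 in INSR and in IRS1, 2 in IGF1R and in IGFBP3, and 0 in IGFBP5. IGFBP2, IGFBP4 and IGFBP6 each held 1. Some of those in IGF2R and INSR overlap. At least 1 GC box was present in 42.6% of all promoters. IGF2R also held 3 E-box matches. Such a match was present in 6.34% of promoters, and 3 or more in 28 of them, or 0.0797%. A TEAD match lay 235 bases before the start in IGFBP5, 101 bases before it in IGFBP6 and 33 bases before it in IRS1. Of all promoters, 11.9% have one. Neither rising binding protein, IGFBP3 or IGFBP5, held a FOXO, AP-1 or insulin response element match in this window, and these motifs were present in 2.98%, 6.57% and 4.30% of promoters. A match describes the letters only. The IGFBP3 window ends at the RefSeq start, and 2 of its bases lie within an exon of the GENCODE 29 annotation, which places the gene's start 602 bases further out. The RefSeq start of INSR lies 380 bases before the GENCODE 29 start, and that of IGFBP6 lies 231 bases after it.

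IGFBP5, a binding protein that also attaches to the extracellular matrix, rose more in fold than IGFBP3, the other binding protein called as higher in DTC. The gene (ENSG00000115461, chromosome 2, 216672105 to 216695525, minus strand, GRCh38) was at 3.14, 4.38 and 3.32 CPM in the controls. After 7 days in erlotinib its libraries held 326, 279 and 299.6 CPM, and after 28 days 255, 218 and 210.3 CPM. KO2 libraries held 16.1, 14.6 and 14.5 CPM without any drug. In bulk RNA, fewer cells of a type and less RNA per cell cannot be told apart, here and in all that follows. The 4 groups did not overlap at all: the controls were lowest, KO2 next, then DTEC and DTC. Against the controls, IGFBP5 rose 83.5-fold in DTC (log2 fold change 6.39, SE 0.154, adjusted p 6.4e-12), 63.1-fold at 28 days (5.98, SE 0.151, adjusted p 6.46e-12), and 4.18-fold in KO2 (2.07, SE 0.138, adjusted p 1.71e-06). It fell by 0.40 on the log2 scale from DTC to DTEC (adjusted p 0.00927). The lowest KO2 value over all alternatives was 1.99 and the highest adjusted p 3.91e-05.

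IGFBP3 is the main IGF carrier of serum. The gene (ENSG00000146674, chromosome 7, 45912245 to 45921874, minus strand) was at 58.8, 56.2 and 58.4 CPM in the controls and reached 1636, 1324 and 1418 CPM in DTC. DTEC libraries held 252, 257 and 307 CPM, so most of the DTC level was gone at 28 days while every library stayed above every untreated one. The rise in DTC was 25.2-fold (log2 fold change 4.66, SE 0.124, adjusted p 8.29e-12) and that in DTEC 4.70-fold (2.23, SE 0.111, adjusted p 3.63e-09), and the difference from DTC to DTEC was -2.42 (SE 0.111, adjusted p 8.88e-10). KO2 libraries held 64.5, 63.2 and 59.7 CPM. They lay just above the controls, by 0.11 on the log2 scale with a 95% interval of -0.12 to 0.34, and the gene was not called there (adjusted p 0.661).

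The summed level of the 8 fibroblast markers was, like IGFBP3 and IGFBP5, highest in DTC. Unlike these genes, it overlapped between DTEC and KO2. It ran from 8.03 to 8.998 CPM in the controls, 55.1 to 57.8 CPM in DTC, 11.2 to 14.2 CPM in DTEC and 13.5 to 15.1 in KO2, and COL1A1 made up nearly all of it. COL1A2, COL3A1, DCN and THY1 were at the counting floor in DTC too. LUM had 0 counts in every control library and 6, 18 and 19 in DTC, and PDGFRA had 0 in the controls and 5, 2 and 5 in DTC. COL1A1 was 6.71-fold higher in DTC than in the controls (adjusted p 1.93e-10). The part of these markers in the IGFBP results was not tested.

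IGFBP2 and IGFBP4 went the other way. IGFBP2 (ENSG00000115457, chromosome 2, 216632828 to 216664436, plus strand) was at 92.7, 114 and 100.2 CPM in the controls and at 15.6, 18.7 and 18.7 CPM in DTC. It stood at 42.7, 54.1 and 74.1 CPM in DTEC, between these groups and without overlap with either. The fall in DTC was 5.80-fold (log2 fold change -2.53, SE 0.169, adjusted p 1.21e-08). At 28 days the gene was at 55.7% of the control level (-0.84, SE 0.159, adjusted p 0.000505), and from DTC to DTEC it rose by 1.69 (adjusted p 1.28e-06). KO2 libraries held 113, 117 and 114 CPM and overlapped the controls (0.16, 95% interval -0.17 to 0.50, adjusted p 0.661).

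IGFBP4 (ENSG00000141753, chromosome 17, 40443461 to 40457731, plus strand) fell from 66.7, 71.3 and 70.1 CPM in the controls to 15.6, 15.01 and 15.9 CPM in DTC. This was a 4.48-fold difference (log2 fold change -2.16, SE 0.117, adjusted p 1.75e-09), and the DTC libraries lay close together. DTEC libraries held 33.0, 29.8 and 41.3 CPM, 50.03% of the controls on average (-0.998, SE 0.112, adjusted p 5.58e-06), and rose by 1.16 from DTC (adjusted p 1.41e-06). KO2 libraries held 49.5, 54.9 and 51.5 CPM, all below the controls. That difference passed the threshold narrowly (-0.42, SE 0.111, adjusted p 0.0498). It did not pass in 10 of 13 alternatives, all 6 that left out a library among them, and its adjusted p ran from 0.00122 to 0.261 over the alternatives.

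The summed level of the 6 epithelial markers was also lower in DTC, at 6293 to 7277 CPM against 10794 to 11395 CPM in the controls, and was 9276 to 12151 CPM in DTEC and 11479 to 12314 CPM in KO2. Of the 6, 4 were called as lower in DTC, as were 33.3% of all tested genes. KRT7 and CDH1 were not lower. KRT7 averaged 2071 CPM in DTC against 1965 CPM in the controls, and CDH1 298 against 285 CPM. All 6 markers stayed above the counting floor, and their part in the IGFBP2 and IGFBP4 results was not tested.

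IGFBP6 and IGFBP7 gave no called difference. IGFBP6 (ENSG00000167779, chromosome 12, 53097436 to 53102345), which prefers IGF2 as its ligand, was at 41.8 to 60.6 CPM in the controls, 39.4 to 65.2 CPM in DTC, 35.2 to 57.2 CPM in DTEC and 40.6 to 42.7 in KO2. These ranges overlapped in all comparisons. The 95% interval of its log2 fold change ran from -0.37 to 0.48 for DTC, from -0.63 to 0.22 for DTEC and from -0.74 to 0.11 for KO2, and the sign in DTC changed without WT control replicate 1 (-0.05) or DTC replicate 3 (-0.06). IGFBP7 (ENSG00000163453, chromosome 4, 57030773 to 57110385), a relative that binds IGFs weakly, was at 0 counts in 11 of 12 libraries and at 2 counts in DTC replicate 2. It was not tested, and was under the floor of 3 counts, a limit of counting error only, in every library.

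**Figure D1:**
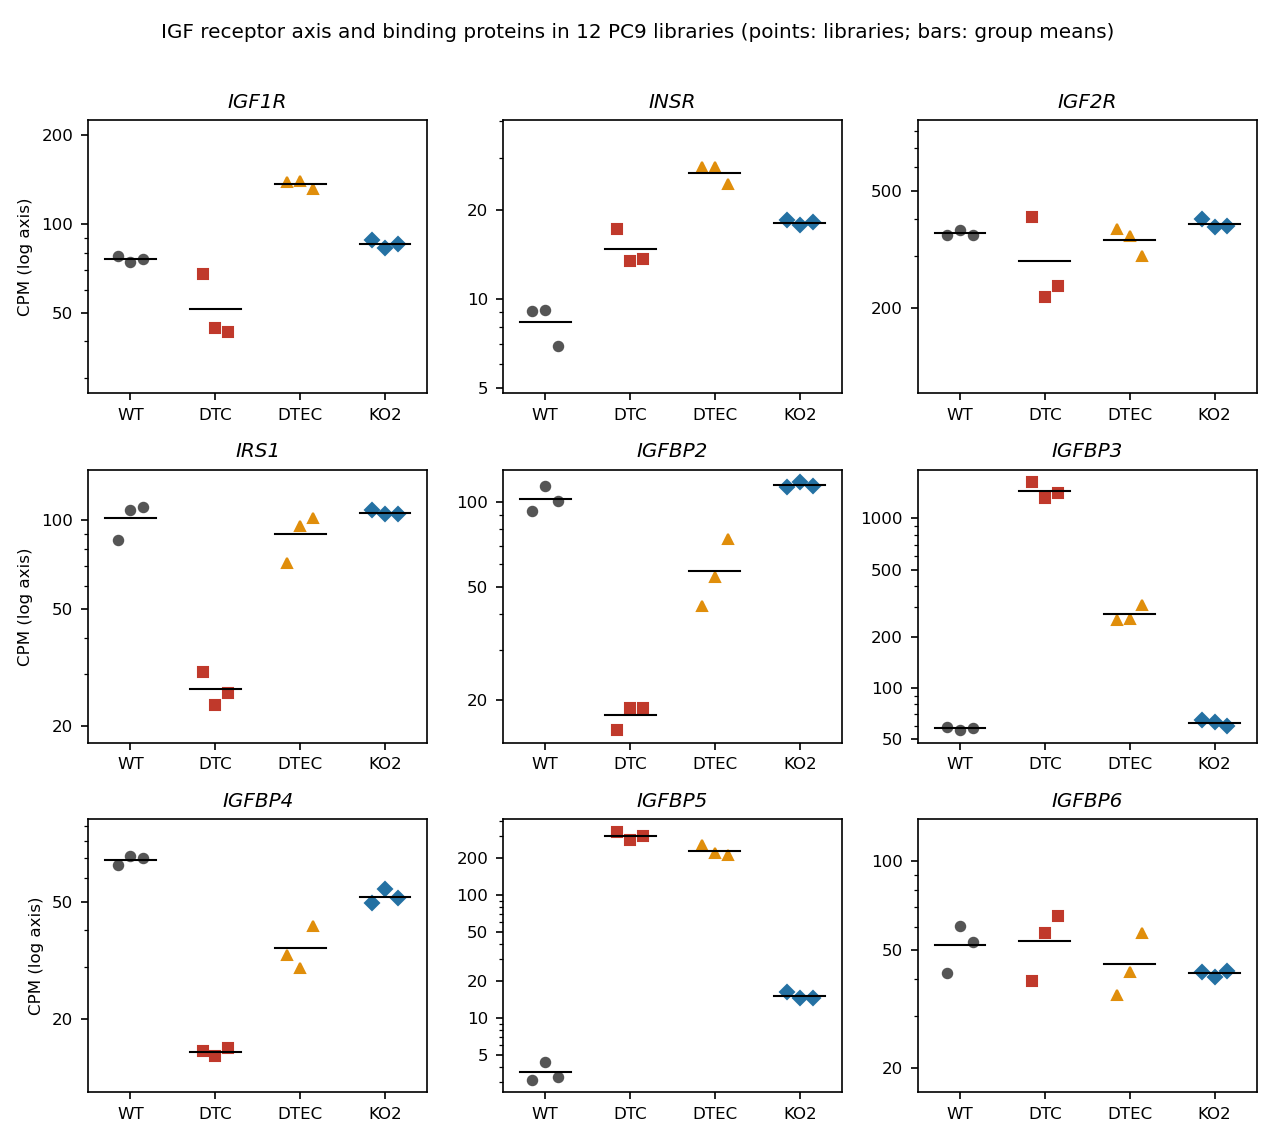
CPM on a log axis for the 9 tested members in each of 12 libraries (points) with group means (bars). IGFBP3 and IGFBP5 are highest in DTC and IGFBP2, IGFBP4 and IRS1 lowest there, INSR is higher in all other groups than in the controls, and DTC replicate 1 lies apart for IGF1R and IGF2R.

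IGFBP2 and IGFBP5 are direct neighbours. They lie on chromosome 2 with their 3′ ends facing each other, 7.67 kb apart and with 0 annotated genes between, and they moved in opposite directions in DTC (-2.53 and 6.39) and DTEC (-0.84 and 5.98). IGFBP3 has a similar arrangement with IGFBP1 on chromosome 7, 18.6 kb away. IGFBP1, an insulin-repressed binding protein of liver, was at 1.48 to 2.39 CPM in the controls and 2.502 to 3.01 CPM in DTC, a difference that was not called (0.45, adjusted p 0.121) although the groups did not overlap. It was called as higher with library totals or the upper quartile as the scaling. In DTEC it was at 1.67 to 2.56 CPM and in KO2 at 1.26 to 1.99 CPM.

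The mix of binding protein transcripts changed with these levels. Genes can be set against each other only per length, so CPM was divided by the kilobases of exon of each gene in GENCODE 29. This counts the exons of all isoforms and so understates genes with rarely used exons. In the controls, IGFBP6 had the highest level per kilobase (38.6 CPM per kb), followed by IGFBP4 (31.5), IGFBP2 (21.5), IGFBP3 (12.6) and IGFBP5 (0.561), and the libraries of IGFBP6 and IGFBP4 overlapped. In DTC the order was IGFBP3 (319), IGFBP5 (46.8), IGFBP6 (40.1), IGFBP4 (7.04) and IGFBP2 (3.70), with overlap between IGFBP5 and IGFBP6. IGFBP1, not among the members, was left out of this order and of the sums that follow. It was at 1.23 CPM per kb in the controls, above IGFBP5. IGFBP3 made up 12.2% ± 1.45 (SD, n = 3) of the summed level of IGFBP2 to IGFBP7 in the controls, 76.5% ± 2.96 in DTC, 38.2% ± 0.207 in DTEC and 14.4% ± 0.566 in KO2. The share of IGFBP5 was 0.533% ± 0.0563, 11.2% ± 0.0622, 22.98% ± 4.43 and 2.47% ± 0.163 in the same groups. DTEC thus held the highest share of IGFBP5, although its level was higher in DTC. The sum of the 6 genes was 94.2 to 114 CPM per kb in the controls, 386 to 448 at 7 days, 145 to 177 at 28 days and 94.2 to 95.7 in KO2.

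**Figure D2:**
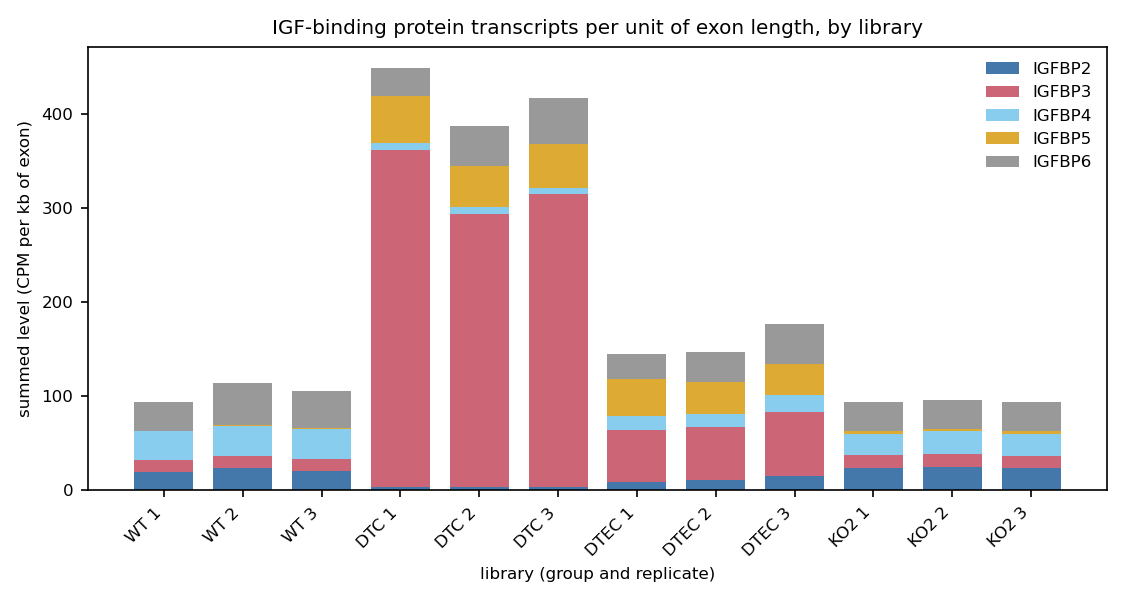
Stacked bars of CPM per kilobase of exon for IGFBP2 to IGFBP6 in each of 12 libraries, named by group and replicate (WT marks the controls). IGFBP3 fills most of the bar in the 3 DTC libraries, at 74.5% to 79.9% of the sum, and IGFBP4 and IGFBP6 most of it in the controls and KO2.

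INSR was the receptor with a called difference in every comparison. The gene (ENSG00000171105, chromosome 19, 7112255 to 7294034, minus strand) was at 9.05, 9.14 and 6.89 CPM in the controls, 17.2, 13.4 and 13.6 CPM in DTC, 27.9, 27.9 and 24.4 CPM in DTEC and 18.5, 17.7 and 18.1 CPM in KO2. No 2 groups overlapped, and the order was the controls, DTC, KO2 and DTEC. Against the controls it rose 1.76-fold in DTC (log2 fold change 0.82, SE 0.134, adjusted p 8.78e-05), then 3.20-fold in DTEC (1.68, SE 0.135, adjusted p 2.43e-07) and 2.16-fold in KO2 (1.12, SE 0.134, adjusted p 0.000319). From DTC to DTEC it rose by 0.86 (SE 0.130, adjusted p 7.48e-05). All 4 differences passed in each of their 13 alternatives, and the KO2 value ran from 1.01 to 1.21. The endothelial marker sum was likewise higher in DTEC and KO2, mostly through PECAM1. That gene was at 89.6 to 95.03 CPM and 46.5 to 50.6 CPM against 28.97 to 35.2 CPM in the controls. TEK was at the counting floor in these groups. In DTC, where INSR was also higher, the sum was lower, at 42.3 to 50.2 CPM against 58.5 to 61.4 CPM in the controls. Its part in the INSR result was not tested.

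IGF1R did not follow INSR. The gene (ENSG00000140443, chromosome 15, 98648539 to 98964530, plus strand) was at 78.0, 74.1 and 76.0 CPM in the controls and at 67.9, 44.3 and 42.96 CPM in DTC. DTEC libraries held 139, 139.8 and 132 CPM, above every other library. The level in DTC was 68.0% of the controls (log2 fold change -0.56, SE 0.141, adjusted p 0.0029). This fall depended on the scaling: it was -0.20 with library totals (adjusted p 0.210) and -0.27 with the upper quartile (adjusted p 0.0816). Without DTC replicate 1 it was -0.77. The rise in DTEC was 1.80-fold over the controls (0.85, SE 0.141, adjusted p 0.000172) and 2.65-fold over DTC (1.405, SE 0.143, adjusted p 1.79e-06), and it passed in every alternative run. In KO2, IGF1R was at 88.3, 82.8 and 85.8 CPM, above the controls in 3 of 3 libraries. The difference was not called (0.17, 95% interval -0.13 to 0.47, adjusted p 0.596), except when the 6 untreated libraries were fitted alone (0.20, adjusted p 0.0273, against 0.0273 to 0.784 over the alternatives).

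Per kilobase of exon, IGF1R exceeded INSR in every library. The ratio was 6.94 ± 1.17 (SD, n = 3) in the controls, 2.60 ± 0.315 in DTC, 3.85 ± 0.170 in DTEC and 3.55 ± 0.0387 in KO2. All 9 libraries outside the controls had a lower ratio than the 3 control libraries. These ratios are descriptions without a test. In KO2 INSR was called as higher and IGF1R was not, and in DTEC both were called as higher.

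**Figure D3:**
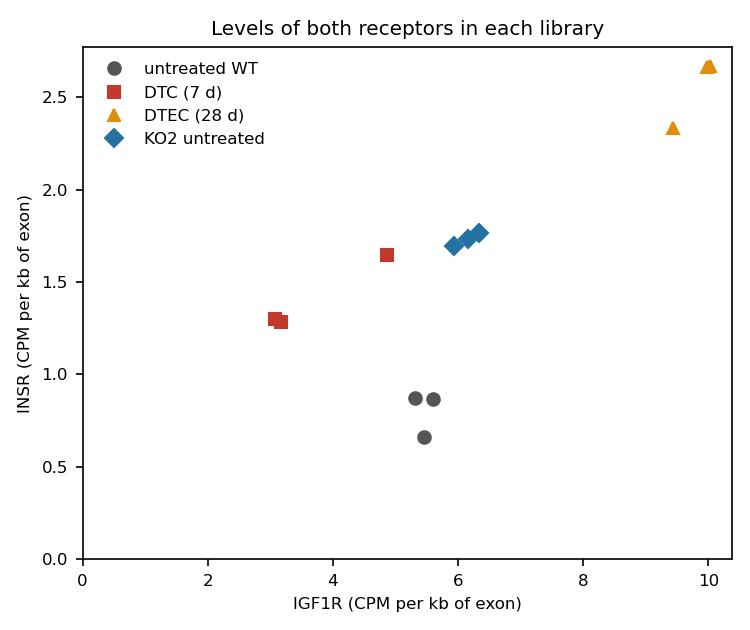
INSR against IGF1R, each in CPM per kilobase of exon, with 1 point per library. The controls (untreated WT) lie lowest on the INSR axis (0.660 to 0.875), DTEC highest on both axes, and KO2 above the controls at a similar IGF1R level.

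IGF2R (ENSG00000197081, chromosome 6, 159969099 to 160113507, plus strand) had the highest level of the 3 receptors per kilobase of exon, 20.1 CPM per kb against 5.45 for IGF1R and 0.800 for INSR in the controls, and no called difference. It was at 354, 367 and 356 CPM in the controls, 408, 219 and 238 CPM in DTC, 372, 353 and 299.96 CPM in DTEC and 401, 376 and 379.8 CPM in KO2. DTC replicate 1 was above all control libraries and the other DTC libraries were below them. The DTC value was -0.32 (95% interval -0.71 to 0.07, adjusted p 0.139). Without DTC replicate 1 the same comparison gave -0.62 (adjusted p 1.67e-05), and DTEC against DTC gave 0.56 (adjusted p 5.89e-05) in place of 0.24 (adjusted p 0.271). With library totals the DTC value was 0.04. On the log2 scale, replicate 1 was higher than the other DTC libraries by 0.84 for IGF2R, 0.64 for IGF1R and 0.35 for INSR. These genes span 144, 316 and 182 kb. IGFBP6, a gene of 4.91 kb, stood at -0.63, but IGFBP3, a gene of 9.63 kb, stood at 0.26. The part of this library's shift in the receptor values was not tested beyond leaving it out. None of the 12 deposited IGF2R values was a whole number (within 0.001), as happens when an estimate divides reads between features. For IGFBP2, 9 of 12 values were whole, and for the other 8 members all 12 were.

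IRS1, the docking protein shared by IGF1R and INSR, fell at 7 days and was back near its starting level at 28 days. The gene (ENSG00000169047, chromosome 2, 226731317 to 226799759, minus strand) was at 85.8, 108 and 110.4 CPM in the controls and 30.5, 23.6 and 26.01 CPM in DTC, 26.3% of the control level (log2 fold change -1.92, SE 0.145, adjusted p 3.89e-08). DTEC libraries held 71.8, 95.6 and 102 CPM and overlapped the controls (-0.17, 95% interval -0.47 to 0.12, adjusted p 0.309). The rise from DTC to DTEC was 3.36-fold (1.75, SE 0.145, adjusted p 2.62e-07). KO2 libraries held 108, 105 and 105.1 CPM and lay within the control range (0.07, 95% interval -0.23 to 0.36, adjusted p 0.862).

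**Figure D4:**
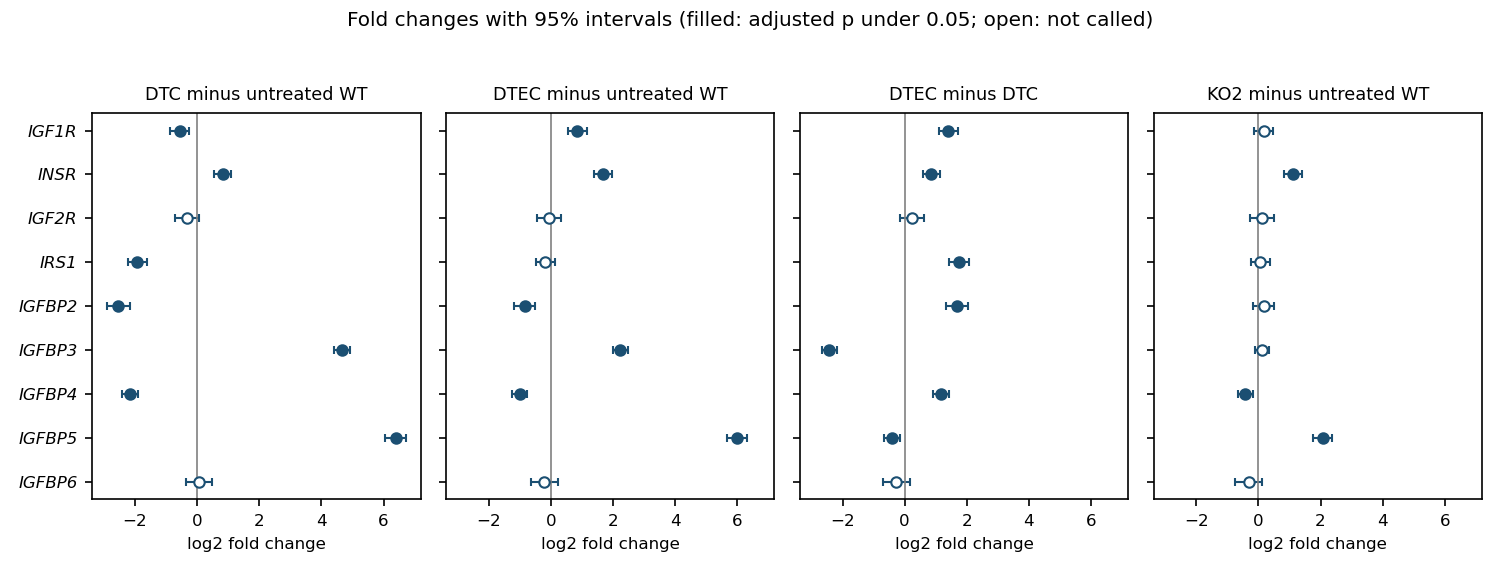
Log2 fold changes with 95% intervals for the 9 tested members in 4 comparisons, with filled points for an adjusted p under 0.05. IGFBP5 lies farthest from 0 in DTC (6.39), DTEC (5.98) and KO2 (2.07) against the controls, and IGFBP6 and IGF2R have open points in all 4 comparisons.

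The members were then counted in each comparison, against the share of all tested genes. Of 17115 tested genes, 67.3% were called in DTC against the controls, 34% higher and 33.3% lower. That comparison, which asks what differed after 7 days in erlotinib, gave 7 calls among 9 tested members, 3 higher and 4 lower. At 2-fold or more there were 5, against 36.2% of all genes, and the libraries did not overlap for 7, against 68.9%. DTEC against the controls gave 6 calls, 4 higher and 2 lower, against 52.3% of all genes (26% higher and 26.3% lower). There 3 members were called at 2-fold, against 19.9%, and 6 did not overlap, against 62.4%. DTEC against DTC gave 7 calls, 5 higher and 2 lower, against 55.4% (28.8% higher and 26.6% lower). There 5 were called at 2-fold, against 22.4%, and 7 did not overlap, against 56.7%. With so many genes called, the counts of members in the drug comparisons are not a result about the members. In KO2 against the controls, which asks what differed without drug, 3 of 9 members were called, INSR and IGFBP5 higher and IGFBP4 lower, where 4.31% of all genes were called (2.76% higher and 1.55% lower). INSR and IGFBP5 passed 2-fold, as did 1.3% of all genes. The libraries of KO2 and the controls did not overlap for 6 of the 9 members, and for 35.7% of all genes. Leaving out any 1 library of either group left 2 member calls and 321 to 426 calls over all genes in place of 738, or 1.81% to 2.40%. With the compared libraries alone 4 members and 2656 genes were called, or 17.5%. The median log2 fold change of the members was -0.32 in DTC, -0.07 in DTEC, 0.86 for DTEC against DTC and 0.11 in KO2, beside 0.06, 0.02, -0.01 and -0.01 over all tested genes. DTC, DTEC and KO2 were each compared with the same control libraries. Directions are relative to the TMM scaling: with library totals the median of all genes moved by 0.35 in DTC and 0.17 in DTEC, and the share of DTC calls that were higher went from 50.5% to 68.4%, that of DTEC calls from 49.7% to 63.7%, that of DTEC against DTC from 51.9% to 37.4% and that of KO2 from 64.1% to 78.8%. With the upper quartile these shares were 65.0%, 59.1%, 38.7% and 69.3%.

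Beyond the members, 36 genes of the pathway were examined by role, of which 30 passed the filter on low counts. Of the ligands, IGF1 and IGF2 were near the limit of detection. IGF1 had 0, 0 and 2 counts in the controls and 21, 19 and 16 counts in DTC, at least 5.73-fold higher when set against 3 counts per library (adjusted p 0.000207). IGF2 had 1, 9 and 1 counts in the controls and 29, 18 and 22 in DTC (log2 fold change 2.59, adjusted p 0.00759). At 28 days IGF1 had 2, 3 and 7 counts and IGF2 had 0, 4 and 3, and both had fallen from DTC (-2.18 and -3.20, adjusted p 0.00947 and 0.00413). The fall of IGF1 was not called without DTEC replicate 1 (-1.86, adjusted p 0.0511). IGF1 and IGF2 were not called in KO2. INS and IGFBPL1 had no counts in any library, and IGFALS, INSRR and IRS4 were at the counting floor throughout.

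Among the proteases that cut binding proteins and the inhibitors of those proteases, 2 were higher and 1 lower of 4 tested in DTC, and likewise in DTEC. Of all tested genes, 67.3% were called in DTC and 52.3% in DTEC. PAPPA, which cleaves IGFBP4 and IGFBP5, fell from 7.44 to 9.20 CPM in the controls to 2.38 to 5.14 CPM in DTC (-1.18, adjusted p 0.00116) and 1.90 to 3.59 CPM in DTEC (-1.46, adjusted p 0.000389). Its inhibitors rose. STC1 went from 2.09 to 2.39 CPM in the controls to 3.38 to 4.66 in DTC (0.86, adjusted p 0.000374) and 7.49 to 8.28 in DTEC (1.79, adjusted p 8.29e-07), and was also higher in KO2 at 3.62 to 4.53 CPM (0.87, adjusted p 0.00882). Without KO2 replicate 2 that KO2 difference was not called (0.80, adjusted p 0.0526). STC2 rose from 230 to 251 CPM in the controls to 282 to 409 in DTC (0.45, adjusted p 0.00653) and 308 to 383 in DTEC (0.52, adjusted p 0.00391), and was not called in KO2 (-0.35, adjusted p 0.170). HTRA1, another protease, had at most 26 counts in any library and was lower in DTEC than in DTC (-1.84, adjusted p 0.0167), a call lost without DTC replicate 1 (-1.46, adjusted p 0.0759) or DTEC replicate 1 (-1.45, adjusted p 0.0720). PAPPA2 had at most 9 counts and was not tested.

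IRS2, the second main docking protein, also fell in DTC and rose from DTC to DTEC. Its libraries held 144 to 192 CPM in the controls, 55.9 to 62.3 in DTC and 197 to 204 in DTEC. The fall was -1.51 (adjusted p 2.16e-08) and the rise 1.73 (adjusted p 1.63e-08). In DTEC its libraries lay above the controls without overlap, but the difference was not called (0.22, adjusted p 0.0862). IRS2 was called as higher there with library totals as the scaling. With that scaling 3 of the 4 tested docking and adaptor genes were higher in DTEC, against 1 in the main fit. GAB1, a docking protein of EGFR and MET as well, rose in DTC (1.01, adjusted p 5.3e-05) and DTEC (1.41, adjusted p 5.07e-06). Its further rise from DTC to DTEC (0.40, adjusted p 0.0377) was not called with library totals, RLE or the upper quartile as the scaling, nor by DESeq2, nor without DTC replicate 2 (0.23, adjusted p 0.230) or 3 (0.32, adjusted p 0.155) or DTEC replicate 1 (0.30, adjusted p 0.156) or 2 (0.33, adjusted p 0.137). Among the 7 inhibitors of the receptors and of PI3K signalling, 2 were higher and 5 lower in DTC. Of all tested genes, 67.3% were called there. INPPL1, the lipid phosphatase SHIP2, rose from 48.5 to 58.3 CPM to 159 to 174 CPM (1.61, adjusted p 5.29e-09), and was higher too in DTEC (0.87, adjusted p 4.84e-06) and in KO2 (0.42, adjusted p 0.0247). The KO2 call was lost without WT control replicate 1 (0.36, adjusted p 0.114) or 3 (0.46, adjusted p 0.0719), and without KO2 replicate 2 (0.39, adjusted p 0.127) or 3 (0.41, adjusted p 0.109). GRB14, an adaptor that blocks the insulin receptor kinase, fell in DTC (-1.37, adjusted p 2.31e-05) and DTEC (-1.53, adjusted p 1.87e-05). From DTC to DTEC the largest changes of this role were a fall of SOCS2 (-2.003, adjusted p 7.59e-08) and a rise of PHLPP1 (1.66, adjusted p 4.44e-07).

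In the PI3K-AKT-mTOR core of 12 genes, 8 were lower and 1 higher in DTC, 4 lower and 1 higher in DTEC, and 0 were called in KO2 by edgeR or DESeq2, with 1 gene, RICTOR, at an unadjusted p under 0.05 by edgeR. PIK3R3, a regulatory subunit of PI3-kinase, fell by 1.23 on the log2 scale in DTC (adjusted p 3.02e-06). In DTEC the largest differences were AKT1 (-0.84, adjusted p 8.04e-06) and RICTOR (0.76, adjusted p 0.000303), a subunit of mTOR complex 2. RICTOR rose from DTC to DTEC (1.07, adjusted p 1.52e-05). With library totals the core had 5 lower and 2 higher genes in DTC, and MTOR, PDPK1 and PIK3R2 were no longer called. MTOR was also not called without DTC replicate 3 (-0.41, adjusted p 0.0538). Over the whole list, 8 of 30 tested genes were higher and 16 lower in DTC, 7 and 7 in DTEC, 14 and 6 in DTEC against DTC, and 2 and 0 in KO2. With library totals these were 11 and 11, 12 and 6, 9 and 7, and 4 and 0. Of all tested genes, 34% were higher and 33.3% lower in DTC, and 26% and 26.3% in DTEC. These shares were 28.8% and 26.6% in DTEC against DTC, and 2.76% and 1.55% in KO2. With so many genes called, the counts in the drug comparisons are not read as a result about the pathway. The median log2 fold change of the list was -0.42 in DTC, 0.01 in DTEC, 0.23 for DTEC against DTC and 0.02 in KO2.

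**Figure D5:**
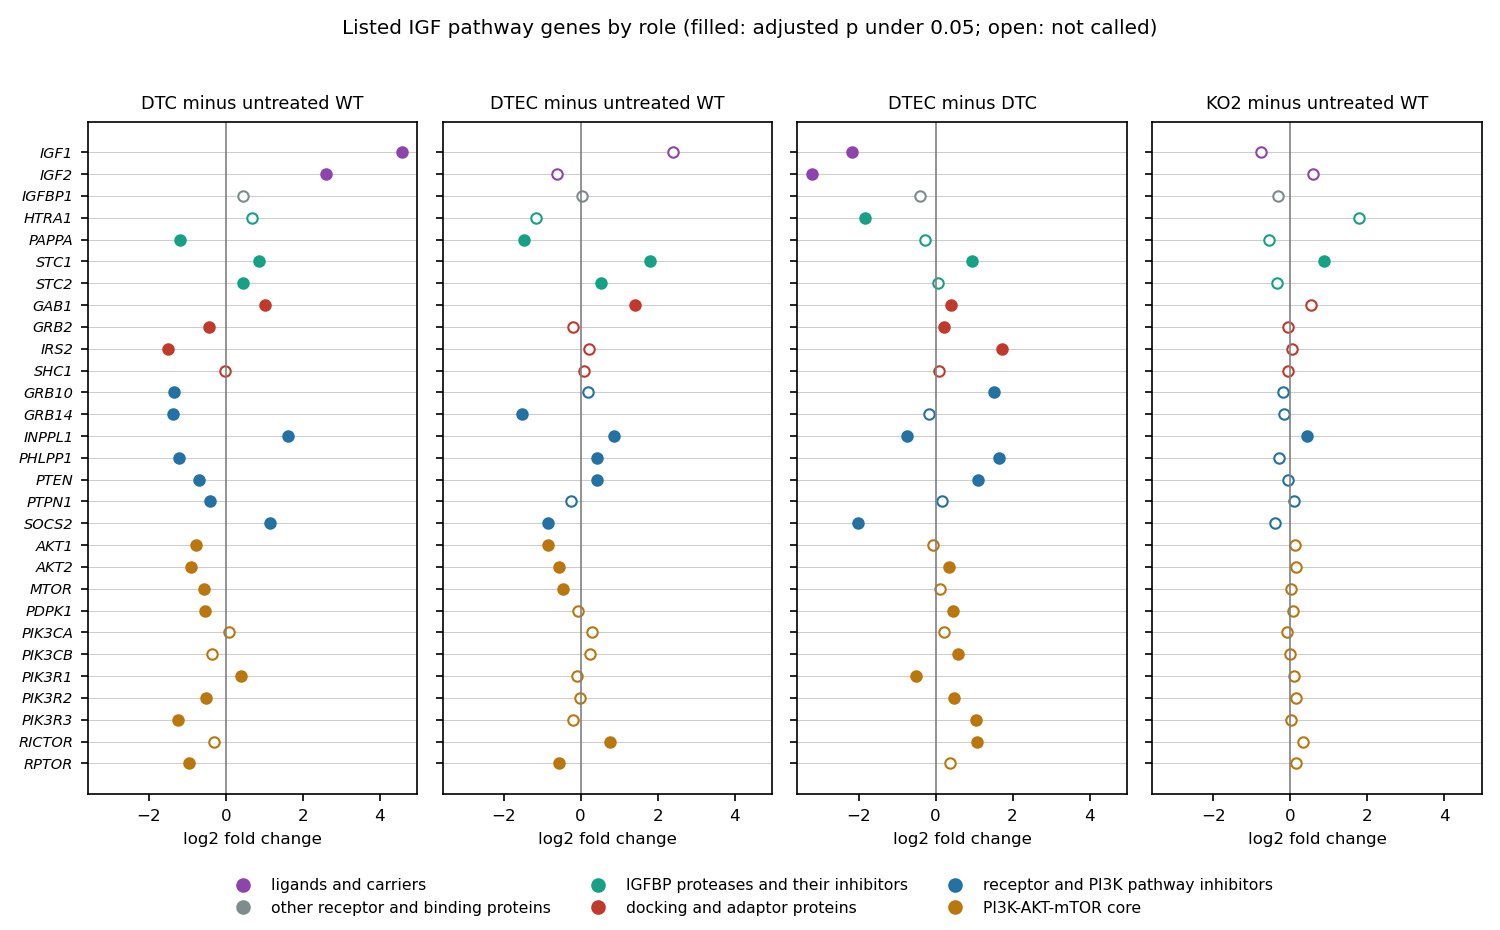
Log2 fold changes of all but 1 of the 30 tested pathway genes outside the members in 4 comparisons, coloured by role and filled at an adjusted p under 0.05. In DTC most points are filled, with 8 of them to the right of 0, and 67.3% of all tested genes were called. KO2 has 2 filled points, STC1 and INPPL1, and 4.31% of all tested genes were called there.

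The genes whose levels ran most closely with each changed member were found by Pearson correlation of log2 CPM over the 12 libraries, among genes with a mean of at least 10 CPM. The libraries fall into 4 groups, so each value describes a pattern of group levels and carries no p. IGFBP3 ran with FN1 (fibronectin, r 0.997), MYL9 (0.995) and PDGFB (0.993). FN1 averaged 95.3 CPM in the controls, 8868 in DTC, 862 in DTEC and 137 in KO2. IGFBP5, with its intermediate KO2 level, ran with ALPK1 (0.994), SYTL2 (0.994) and PBXIP1 (0.994). SYTL2 averaged 10.9 CPM in the controls, 74.1 in DTC, 73.3 in DTEC and 18.3 in KO2. INSR ran with PADI2 (0.975), ALDH3B2 (0.939) and CYP2S1 (0.938), lower values than for any other member examined. PADI2 averaged 17.3, 32.5, 52.7 and 33.9 CPM in the controls, DTC, DTEC and KO2. IGFBP2 ran with DNAAF5 (0.999), PLPP2 (0.997) and TLE3 (0.994), and IGFBP4 with PACSIN3 (0.994), STX1A (0.993) and FXYD5 (0.992). IRS1 ran with ITGA3 (0.994), SLC6A6 (0.992) and TRERF1 (0.992), and IGF1R with ZNF217 (0.996), DLG3 (0.994) and PTPN3 (0.993). Among the members themselves, IGFBP2, IGFBP4 and IRS1 had r of 0.914 to 0.963 with each other and -0.973 to -0.905 with IGFBP3. IGF1R and INSR had r 0.602, and INSR had 0.683 with IGFBP5 and 0.286 with IGFBP3.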

How the data were processed

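Gene-level expected counts of 12 PC9 libraries were analysed. The values are estimated counts per gene, unscaled, as deposited by the authors. Per the labels, the kit was TruSeq Stranded mRNA, reads were 101 bp paired, and all libraries belong to batch 1. RSEM 1.3.1, Bowtie2 2.5.2, DESeq2 1.40.2 and GRCh38 are named in the submitters' processing notes. The annotation release is not given in the sources used here, so coordinates and exon lengths are those of GENCODE 29 for the same identifier. Estimated counts can split reads between similar genes.

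Counts were rounded. In R 4.3.3, edgeR 4.0.16 kept 17115 genes (filterByExpr; the lowest share of counts kept in a library was 99.9%) and fitted all 12 libraries with TMM scaling, 1 mean per group and robust quasi-likelihood tests. Adjusted p-values (Benjamini-Hochberg) cover all 17115 genes, and a call is one under 0.05. SE is the log2 fold change divided by the root of F. Folds and percentages are ratios of mean CPM. The script was tested on simulated data.

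The rule for named genes was that all 10 members were named in each comparison, and at most 2 called genes per pathway role, those with the largest change; STC2, PAPPA2, PECAM1, VWF, CD68, LYZ, MTOR, PDPK1 and PIK3R2 were added after their values were seen, and 1 gene of the PI3K-AKT-mTOR core and 1 leukocyte marker are counted but not reported here. Members and lists were chosen with earlier results of these data known. Alternatives were RLE, library totals and upper-quartile scaling, DESeq2 1.42.0, no count filter, the compared libraries alone, a replicate block, and each library left out.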

Additional observations from a re-analysis of the deposited data

Results flagged for a closer look

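Of the 9 tested members, 7 had changes against the controls that differed between 7 and 28 days of erlotinib, by edgeR's direct test of DTEC against DTC. On the log2 scale, as DTEC minus DTC, the difference was 1.69 for IGFBP2, -2.42 for IGFBP3, 1.16 for IGFBP4, -0.40 for IGFBP5, 1.75 for IRS1, 1.405 for IGF1R and 0.86 for INSR. Adjusted p-values ran from 8.88e-10 for IGFBP3 to 0.00927 for IGFBP5. Of all 17115 tested genes, 55.4% were called in that comparison. For each of the 7, the 3 DTEC libraries did not overlap the 3 DTC libraries, as for 56.7% of all tested genes. The 7 were picked by their call in these same libraries, so the lack of overlap adds no support.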

How the results depend on the processing

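Of 468 recalculated fold changes of single members, 445 kept their direction and their side of the threshold, 12 lost a call, 4 gained one and 7 changed sign. Of the 12 lost calls, 10 were IGFBP4 in KO2 and 2 were IGF1R in DTC. Gained were IGF2R in DTC and in DTEC against DTC without DTC replicate 1, IGF1R in KO2 with the compared libraries alone, and IGFBP6 in DTEC against DTC without DTEC replicate 3 (-0.52, adjusted p 0.0432). Sign changes all concerned values that were not called: IGF2R with library totals in DTC (0.038) and DTEC (0.097), with the upper quartile in DTEC (0.042) and without DTEC replicate 3 in DTEC (0.0057; -0.12 to 0.0057 over the libraries left out), IGFBP6 in DTC without WT control replicate 1 (-0.049) or DTC replicate 3 (-0.063; -0.063 to 0.27), and IRS1 in KO2 without WT control replicate 1 (-0.025; -0.025 to 0.15). The number of genes called in KO2, 738, was 1114 by DESeq2, 1147 with no count filter, 2656 with the compared libraries alone and 321 to 426 without a library. Pathway genes called in KO2, 2, were 4 with library totals, 9 with the compared libraries alone and 0 to 2 without a library, the 0 being without KO2 replicate 2 and the only call being STC1 without WT control replicate 1 or 3 or KO2 replicate 3. Each of the 6 libraries lowered the count of all genes by over 1.5 times. Those called in DTEC against DTC, 20, were 13 with the compared libraries alone. Members called were 6 to 8 in DTC, 6 in DTEC, 7 to 8 in DTEC against DTC and 2 to 4 in KO2. The cause of these shifts was not tested. Replicate numbers were not taken to pair the cultures in the main fit. Same-numbered libraries of different groups had correlated deviations (r over 0.1) in 4 of 18 pairs, with r from -0.03 to 0.179. Of the 12 libraries, 8 correlated best with one of their own number. These values do not show that the cultures were unpaired, and pairing by number was tried only as the replicate block. With the replicate block 11775, 9255, 9732 and 887 genes were called in DTC, DTEC, DTEC against DTC and KO2, in place of 11520, 8955, 9480 and 738. Depth limits IGFBP7, IGF1, IGF2 and HTRA1, which had few counts.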
